A study of Mus musculus with 20 samples.

Results

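The CXC chemokine ligands measured here were Cxcl1, Cxcl2, Cxcl5, Cxcl9, Cxcl10, Cxcl11, Cxcl14 and Cxcl16, taken by gene symbol from the non-control probes of an Agilent mouse 44k array. They were 8 of the 27670 gene names on the array, read by 9 of its 41174 probes, Cxcl16 having 2. Liver and white adipose tissue (WAT) came from male C57BL/6 mice, 7 months old and kept for 21 weeks on food with 35% fat (HFD), 5 WT(HFD) and 5 CD44KO(HFD) samples of each tissue on 20 arrays. The CD44KO mice lack the cell surface receptor CD44 in the whole body and were backcrossed to C57BL/6J, and the fat depot of the array samples is not given in the sources used here. Since all groups had eaten the HFD, they are called WT and CD44KO below, and no array of a mouse on a normal diet was analysed here.

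CXC chemokines are small secreted proteins that bind G protein-coupled receptors on leukocytes and direct their movement into tissue. Cxcl1, Cxcl2 and Cxcl5 carry the ELR motif, bind Cxcr2 and draw neutrophils, and their genes are switched on through NF-kB by TNF, IL-1 or microbial products. Cxcl9, Cxcl10 and Cxcl11 are induced by interferons and bind Cxcr3 on activated T and NK cells. Cxcl14 is produced by epithelial and stromal cells without an inflammatory stimulus, and Cxcl16 is a membrane-anchored ligand of Cxcr6 that can be shed by proteases. In fatty liver and obese WAT, these ligands are studied as signals that recruit leukocytes.

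A level is the log2 processed signal of the probe minus the 75th percentile of its array, so 0 is a signal equal to that percentile, and a difference of 1 is 2-fold. Levels of different probes were not compared with each other. The 75th percentile was a processed signal of 432.7 to 574.6 on the liver arrays and of 1541 to 2792 on those of WAT. The share of spots well above background, as marked by the scanner software, was 57.4% to 61.9% in liver and 63.2% to 69.5% in WAT, except on WT WAT replicate 1, where it was 89.5%. That array also correlated less with the other WT WAT arrays (r of 0.858 to 0.874 across probes), and its dim probes read high. Cd44 itself was 0.11 to 0.83 in WT liver against -4.19 to -3.24 in CD44KO liver, and 3.55 to 4.56 against -0.67 to -0.35 in WAT. The summed signal of 7 hepatocyte genes was 11.12 to 11.65 in liver on the log2 scale, and that of 8 adipocyte genes 8.05 to 9.75 in WAT.

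Upstream sequence from RefSeq (GRCm38.p6) was held for Cxcl1, Cxcl2, Cxcl9, Cxcl10 and Cxcl14, that is 5 of 8 ligands. The 250 bases before the start of Cxcl9 (chr5:92328080-92328329, minus strand), Cxcl10 (chr5:92348890-92349139, minus strand) and Cxcl1 (chr5:90890995-90891244, plus strand) are shown because Cxcl9 and Cxcl10 had the largest differences among the interferon-induced ligands in liver and Cxcl1 is the ELR ligand measured in both tissues. Capitals mark matches, on either strand, to GAAANNGAA (a core of the interferon-stimulated response element, ISRE), GGANNTTCC (the inner part of an NF-kB site) and TTCNNNGAA (GAS, the interferon-gamma activated site).
Cxcl9: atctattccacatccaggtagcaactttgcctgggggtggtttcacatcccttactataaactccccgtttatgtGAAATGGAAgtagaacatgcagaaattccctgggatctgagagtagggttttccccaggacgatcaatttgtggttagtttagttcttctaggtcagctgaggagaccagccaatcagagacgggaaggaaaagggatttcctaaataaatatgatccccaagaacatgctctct
Cxcl10: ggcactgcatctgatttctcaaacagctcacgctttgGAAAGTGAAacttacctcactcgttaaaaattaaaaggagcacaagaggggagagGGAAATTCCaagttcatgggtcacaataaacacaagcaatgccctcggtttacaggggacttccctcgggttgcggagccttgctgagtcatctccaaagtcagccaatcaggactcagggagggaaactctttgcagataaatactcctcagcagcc
Cxcl1: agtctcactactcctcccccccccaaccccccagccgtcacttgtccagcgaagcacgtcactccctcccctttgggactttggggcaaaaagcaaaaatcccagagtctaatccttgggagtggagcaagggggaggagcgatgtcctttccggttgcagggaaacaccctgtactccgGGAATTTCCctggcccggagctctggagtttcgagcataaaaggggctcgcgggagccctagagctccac
Cxcl10 held an ISRE core 213 to 205 bases and an NF-kB match 158 to 150 bases before its start. Cxcl9 held an ISRE core at 175 to 167 bases and neither of the other patterns. Cxcl1 held an NF-kB match 70 to 62 bases before its start, Cxcl2 the same letters at 96 to 88 bases, and Cxcl14 an ISRE core at 172 to 164 bases and a GAS match at 191 to 183 bases. The ISRE core occurred in 7.13%, the NF-kB pattern in 3.59% and the GAS pattern in 7.02% of 32851 upstream windows of this length. A match is a description of the letters and not a binding site.

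In liver, Cxcl9 was lower in CD44KO mice and was the 1 ligand of 6 tested that passed the test. All 6 tested ligands had a lower mean in CD44KO liver, with a median log2 difference of -0.57, whereas the median over the 24689 probes tested was 0.08. By limma with Benjamini-Hochberg adjustment at 0.05, 13.6% of those probes were called, 5.75% being lower and 7.85% higher in CD44KO liver. An unadjusted p under 0.05 was reached by 2 ligands, Cxcl9 and Cxcl14, both lower, and by 32.2% of probes in either direction and 11.8% in the lower direction. For none of the 6 ligands were all CD44KO arrays on one side of the WT arrays, as they were for 11.7% of probes, and below them for 4.22%. Cxcl2 and Cxcl5 were not well above background on any liver array and were not tested. Because RNA of whole tissue was measured, fewer cells of a type and less RNA per cell cannot be told apart.

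**Figure D1:**
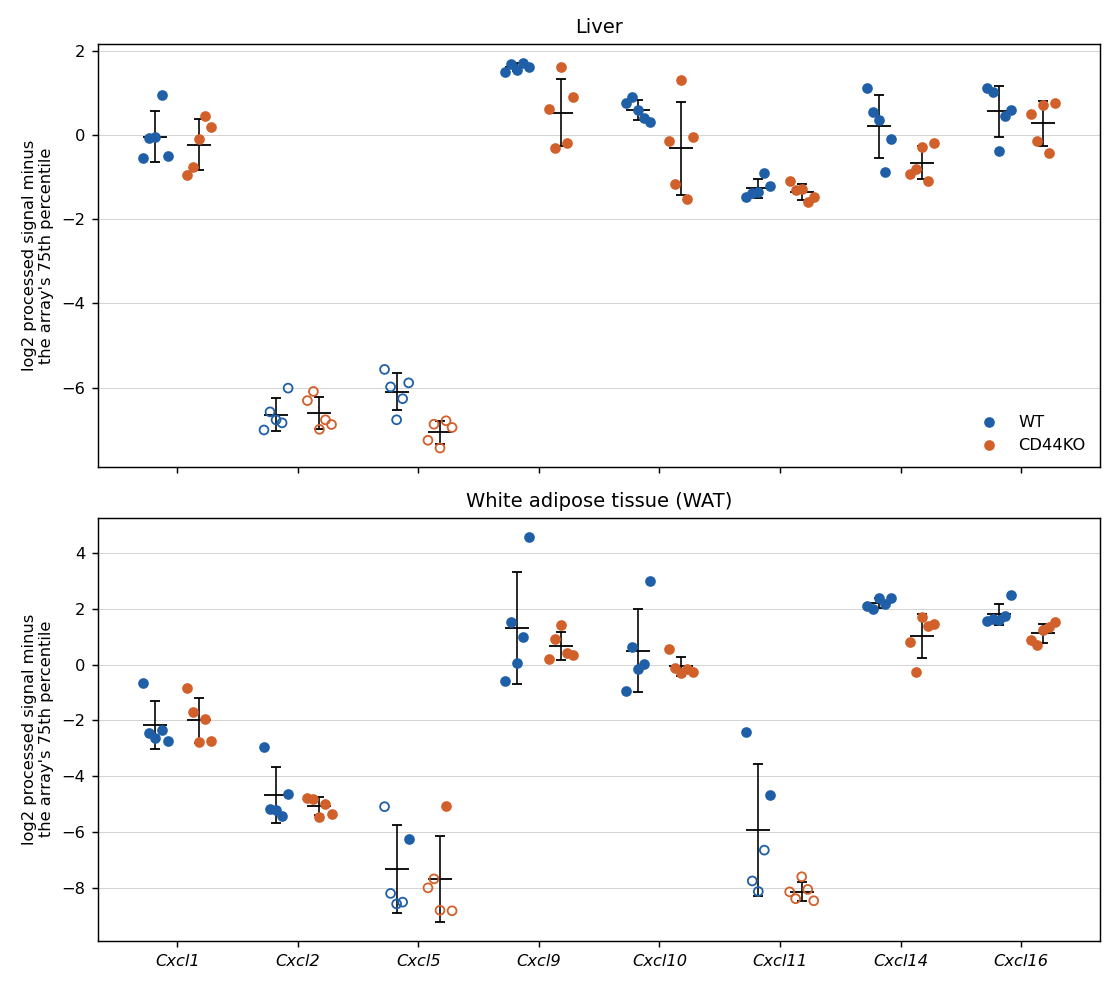
Level of the brightest probe of each ligand on each array, in liver (top) and WAT (bottom); the y axis is the log2 processed signal minus the array's 75th percentile. Each point is 1 array (5 per group), open points were not well above background, and bars give the mean and SD. Cxcl9 in liver sits in a narrow WT band of 1.49 to 1.70, with 4 of 5 CD44KO arrays below it, and in WAT the CD44KO points of Cxcl14 and Cxcl16 all lie under the WT points.

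Cxcl9 (NM_008599) encodes Mig, a ligand of Cxcr3 induced by interferon-gamma, and its probe lies at chr5:92310412-92310471 (mm7). Its level in WT liver was 1.49, 1.70, 1.55, 1.70 and 1.62 in replicates 1 to 5, and in CD44KO liver 0.62, -0.31, 1.61, -0.19 and 0.90. The WT arrays hardly varied, whereas the CD44KO arrays spread widely and replicate 3 lay within the WT range. The mean was 1.61 ± 0.09 (SD, n = 5) in WT and 0.53 ± 0.80 (SD, n = 5) in CD44KO liver, 2.12-fold lower in CD44KO. The log2 difference was -1.09 with an SE of 0.32, a 95% confidence interval of -1.80 to -0.37 and an adjusted p of 0.0499 (limma), and the exact permutation test gave a two-sided p of 0.024. The adjusted p lies just inside the threshold. Without CD44KO replicate 3 the log2 difference was -1.36 with an adjusted p of 0.00818, and without any other single array the adjusted p was between 0.0672 and 0.108, with the difference between -1.18 and -0.88. Within slides, it was -0.30 on slide A, -1.95 on slide B and -0.93 on slide C.

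Cxcl10 (NM_021274), the Cxcr3 ligand IP-10, is read at chr5:92334002-92334061. Its level was 0.77, 0.91, 0.58, 0.40 and 0.31 in WT liver and -0.15, -1.15, 1.31, -1.51 and -0.06 in CD44KO liver. CD44KO replicate 3 lay above all WT arrays and the other 4 below all of them. The log2 difference of -0.91 (SE 0.45, 95% confidence interval -1.91 to 0.09) had an adjusted p of 0.193 by limma and did not pass the test. Without CD44KO replicate 3 it was -1.31 with an adjusted p of 0.0199. CD44KO replicate 3 was the highest and replicates 2 and 4 the lowest CD44KO arrays for both Cxcl9 and Cxcl10. Replicates 2 and 4 shared slide B and replicate 3 lay on slide A, where the Cxcl10 difference was 0.08 against -1.99 on slide B and -0.74 on slide C.

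**Figure D2:**
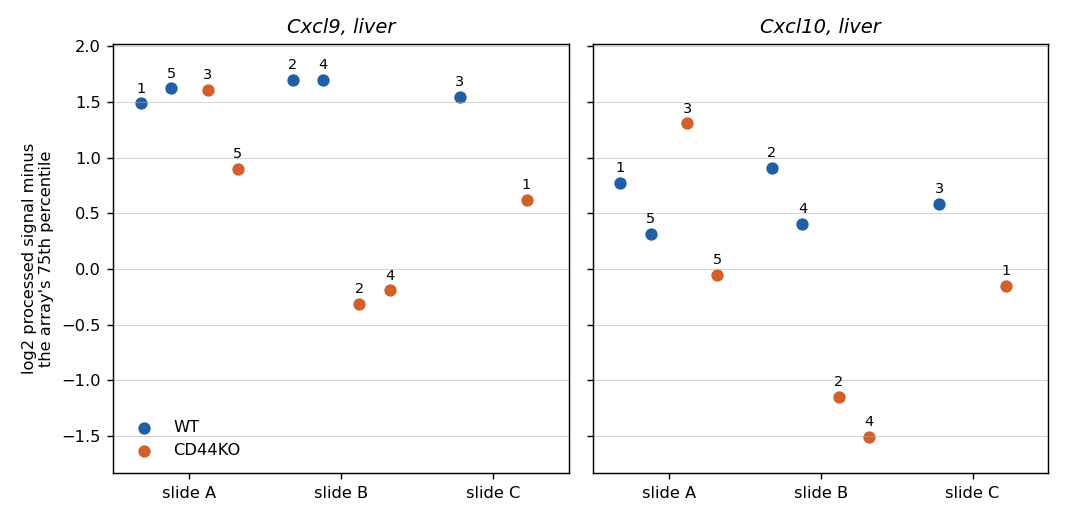
Levels of Cxcl9 (left) and Cxcl10 (right) on the 10 liver arrays, arranged by the slide that held them; the y axis is the log2 processed signal minus the array's 75th percentile and the numbers are replicates. The CD44KO arrays on slide B were the lowest for both ligands, and CD44KO replicate 3 on slide A reached 1.61 for Cxcl9 and 1.31 for Cxcl10.

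Cxcl11 (NM_019494) is the third Cxcr3 ligand, and RefSeq lists its gene as a transcribed pseudogene in the C57BL/6J reference. Its probe covers 152 bases of the genome with 60 bases of sequence (chr5:92348344-92348495, mm7), so it spans a splice junction. It is shown because it reads a spliced transcript of that gene.
Cxcl11 probe: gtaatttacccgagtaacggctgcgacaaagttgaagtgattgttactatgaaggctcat
In liver the level was -1.48, -1.39, -1.35, -0.90 and -1.22 in WT and -1.10, -1.31, -1.29, -1.59 and -1.48 in CD44KO mice. The groups overlapped almost fully, and the log2 difference was -0.09 with a 95% confidence interval of -0.37 to 0.20 (adjusted p = 0.677, limma). The interval of Cxcl11 is the narrowest of the 6 ligands, so a difference of the size seen for Cxcl9 lay outside it.

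Of the ligands outside the interferon-induced group in liver, Cxcl14 (NM_019568, chr13:55377968-55378027 in mm7) had the largest difference. It was 1.12, 0.55, 0.36, -0.87 and -0.10 in WT and -0.92, -0.80, -0.28, -1.08 and -0.18 in CD44KO liver. WT replicate 4 was among the CD44KO values, while the other 4 WT arrays lay above all CD44KO arrays. The log2 difference was -0.87 (SE 0.34), with an unadjusted p of 0.0282 and an adjusted p of 0.11 by limma. Without WT replicate 4 it was -1.14 with an adjusted p of 0.0265, and within the slides it ran from -1.28 to -0.74. In the same arrays 9 of 9 stellate cell and fibroblast markers had a lower mean in CD44KO liver, with 5 called. Their summed level was 6.68 to 7.31 in WT and 6.03 to 6.65 in CD44KO liver. Of 5 cholangiocyte markers all had a lower mean and 2 were called, with a summed level of 4.24 to 6.29 and 3.17 to 4.28. The cholangiocyte list includes Spp1, the pro-inflammatory cytokine osteopontin, and its summed level was 3.43 to 4.99 in WT WAT. That sum is therefore not a measure of cholangiocytes alone. Over all probes tested in liver, 38.7% had a lower mean and 5.75% were called lower. The part of these markers in the Cxcl14 difference was not tested.

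Cxcl16 was 1.13, 1.03, -0.39, 0.46 and 0.59 in WT and 0.50, -0.14, 0.72, -0.42 and 0.76 in CD44KO liver, a log2 difference of -0.28 (adjusted p = 0.585, limma), and the second probe gave -0.27 (adjusted p = 0.384). The groups overlapped with both probes. Cxcl1 (KC, NM_008176, chr5:90882059-90882118 in mm7), a neutrophil attractant, was -0.56, -0.07, -0.06, 0.96 and -0.50 in WT and -0.94, -0.76, -0.09, 0.45 and 0.18 in CD44KO liver. The difference was -0.19 with a 95% confidence interval of -0.95 to 0.57 (adjusted p = 0.746, limma). Cxcl2 (MIP-2, NM_009140, chr5:90894748-90894807) ran from -7.01 to -6.01 in WT and from -6.99 to -6.09 in CD44KO liver, with no array well above background. Cxcl5 (LIX, NM_009141, chr5:90732453-90732512) ran from -6.76 to -5.57 in WT and from -7.44 to -6.79 in CD44KO liver, but every array of both groups was dim and all 5 CD44KO values were estimates that the scanner software puts in place of the dimmest signals. No fold is given for Cxcl5 for that reason.

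**Figure D3:**
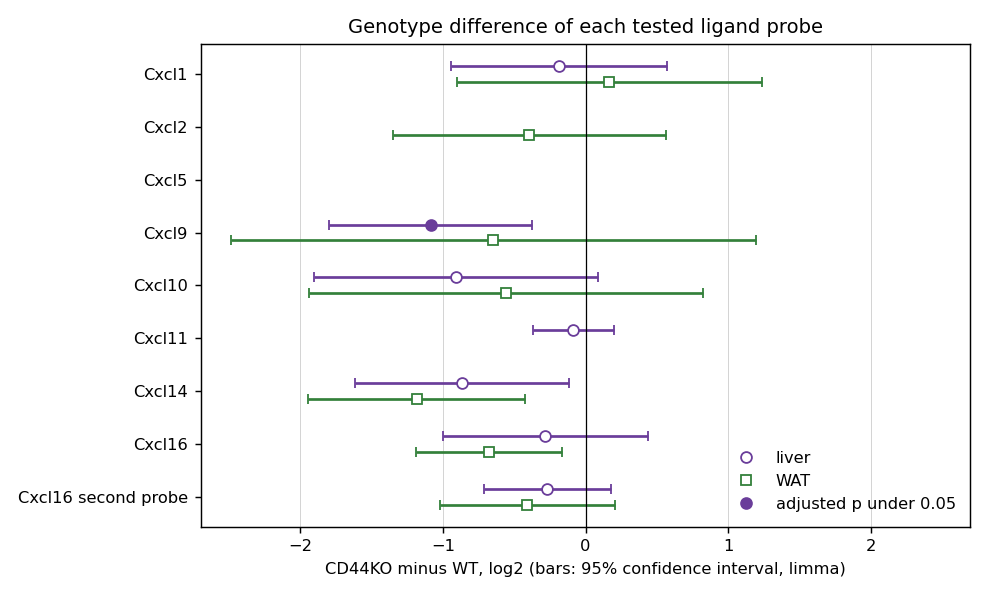
Log2 difference of CD44KO minus WT for each tested ligand probe in liver (circles) and WAT (squares), with 95% confidence intervals from limma on the x axis. The filled circle marks the single difference with an adjusted p under 0.05, Cxcl9 in liver at -1.09, and the widest interval is that of Cxcl9 in WAT.

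In WAT, none of the 6 tested ligands passed the limma test after adjustment, and 2 of them, Cxcl14 and Cxcl16, had an unadjusted p under 0.05. Of the 27653 probes tested, 0.0398% were called (0.0289% lower and 0.0108% higher), 14.9% had an unadjusted p under 0.05, and 6.6% had one and were lower. The mean was lower in CD44KO WAT for 5 ligands and higher for Cxcl1, with a median log2 difference of -0.60 against -0.06 over all probes tested. Scaling each array on its median in place of the 75th percentile moved that last value to 0.42, so WAT differences are also given relative to this scaling where they are largest.

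Cxcl14 is a chemokine that WAT and epithelia make in quantity, and its level in WT WAT was 2.11, 1.99, 2.41, 2.17 and 2.40. In CD44KO WAT it was 0.83, -0.26, 1.71, 1.40 and 1.48. The groups did not overlap, CD44KO replicate 2 being the lowest array. The mean was 2.22 ± 0.19 (SD, n = 5) in WT and 1.03 ± 0.79 (SD, n = 5) in CD44KO WAT, a log2 difference of -1.18 (SE 0.34, 95% confidence interval -1.94 to -0.43). The exact permutation test gave a p of 0.0079, the smallest that 5 against 5 arrays allow, whereas the limma adjusted p over all probes was 0.203. Without CD44KO replicate 2 the difference was -0.86, with median scaling -0.70, and with array weights -0.77 with an adjusted p of 0.0228. Within slides, it was -1.53 on slide D (2 WT and 2 CD44KO arrays) and -0.56 on slide E (3 WT and 1 CD44KO). Slide F held CD44KO arrays alone, so genotype and slide are partly mixed in WAT. Of 5 mesothelial markers all had a lower mean in CD44KO WAT, against 55.3% of all probes. An unadjusted p under 0.05 was reached by 4, against 14.9% of all probes, and none was called by limma. The summed level of the mesothelial markers was 1.15 to 3.44 in WT and 0.00 to 1.73 in CD44KO mice. Their part in the Cxcl14 difference was not tested.

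Cxcl16 (NM_023158) is the ligand of Cxcr6 and also a scavenger receptor for oxidised lipoprotein. Its brighter probe spans a splice junction, covering 2742 bases (chr11:70537593-70540334, mm7) with 60 bases of sequence, and the other lies in 1 block (chr11:70535852-70535911). The first is shown because both probes gave different overlaps of the groups.
Cxcl16 probe: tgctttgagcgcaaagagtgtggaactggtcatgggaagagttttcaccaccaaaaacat
By that probe WT WAT was 1.58, 1.64, 1.62, 1.73 and 2.49 and CD44KO WAT 0.88, 0.70, 1.25, 1.34 and 1.53. All CD44KO arrays were below all WT arrays. The log2 difference was -0.68 (SE 0.23), with an exact permutation p of 0.0079 and a limma adjusted p of 0.239. The second probe gave 1.44, 1.70, 1.29, 1.68 and 2.41 in WT and 0.98, 0.66, 1.75, 1.42 and 1.68 in CD44KO WAT, where the groups overlapped and the difference of -0.41 had an adjusted p of 0.49. With median scaling the first probe's difference was -0.20. Within slides, that of the first probe was -0.55 on slide D and -0.67 on slide E, and that of the second -0.39 and -0.05. All CD44KO arrays lay below all WT arrays for 2 of the 6 tested ligands against 2.07% of the probes tested in WAT, and 6.14% of probes did not overlap in either direction. Of 13 macrophage markers, 12 had a lower mean in CD44KO WAT, against 55.3% of all probes. An unadjusted p under 0.05 by limma was reached by 4, against 14.9% of all probes, and none was called. The summed level of the macrophage markers was 9.13 to 9.63 in WT and 9.02 to 9.42 in CD44KO mice. Their part in the Cxcl16 difference was not tested.

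The interferon-induced ligands in WAT were set apart by 1 array. Cxcl9 was -0.57, 1.52, 0.07, 0.98 and 4.59 in WT and 0.22, 0.92, 1.42, 0.43 and 0.36 in CD44KO WAT. WT replicate 5 stood far above all others, and the other 4 WT arrays surrounded the CD44KO values. The log2 difference was -0.65 (95% confidence interval -2.49 to 1.19, adjusted p = 0.699, limma), and without WT replicate 5 it was 0.17. Cxcl10 was -0.94, 0.63, -0.16, 0.02 and 3.0 in WT and 0.55, -0.11, -0.29, -0.14 and -0.26 in CD44KO WAT, again with WT replicate 5 alone at the top. Its difference was -0.56 (adjusted p = 0.658, limma), and 0.06 without that array.

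In CD44KO WAT no array had Cxcl11 well above background, its level being -8.47 to -7.61, nor did WT replicates 2, 3 and 4, at -7.76, -8.14 and -6.65. It was well above background on WT replicates 1 and 5, at -2.41 and -4.68. Replicate 1 is the array on which dim probes read high, so replicate 5 is the single array of ordinary background on which Cxcl11 was detected in WAT. No fold is given, since the WT mean rests on replicate 1. WT WAT replicate 5 also had the highest summed level of 15 T and NK cell markers (5.41 against 2.57 to 3.44 on the other WT and 2.28 to 2.95 on the CD44KO arrays) and of 24 interferon target genes (8.09 against 5.19 to 6.01 and 5.43 to 6.05), whose part in these levels was not tested. Cxcl13, which draws B cells, and its receptor Cxcr5 were likewise highest there among the WAT arrays, at 0.56 and -0.48.

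The ELR ligands in WAT showed no separation by genotype. Cxcl1 was -0.65, -2.46, -2.62, -2.34 and -2.72 in WT and -0.82, -1.69, -2.76, -1.93 and -2.75 in CD44KO WAT. Replicate 1 was the highest array in each genotype. The log2 difference was 0.17 (95% confidence interval -0.90 to 1.24, adjusted p = 0.868, limma). These 2 arrays also had the highest summed level of 4 epididymis markers, -0.31 in WT replicate 1 and -2.54 in CD44KO replicate 1 against -6.29 to -4.47 on the other 8 arrays. CD44KO replicates 2 and 4, the next highest for Cxcl1, had sums of -4.47 and -4.78, with the marker Adam7 at -5.56 and -5.41. WT replicate 5, the lowest WT array for Cxcl1, had Adam7 well above background at a like level, -5.40. The part of epididymal RNA in the Cxcl1 level was not tested. WT replicate 1 is the array on which dim probes read high, and its marker sum carries that limit. Among those 4 markers, Defb12 was not well above background on any array. On CD44KO replicate 1 Crisp1 (-7.59) was not well above background either, so the sum there rests on Lcn5 (-3.79) and Adam7 (-3.45).

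Cxcl2 was -2.96, -5.17, -5.20, -5.41 and -4.65 in WT and -4.77, -4.81, -5.46, -4.98 and -5.35 in CD44KO WAT. WT replicate 1 was the highest, and without it the log2 difference went from -0.39 (adjusted p = 0.654, limma) to 0.03. Cxcl5 was well above background on WT replicate 5 (-6.25) and CD44KO replicate 4 (-5.08) and on no other WAT array, and was not tested.

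**Figure D4:**
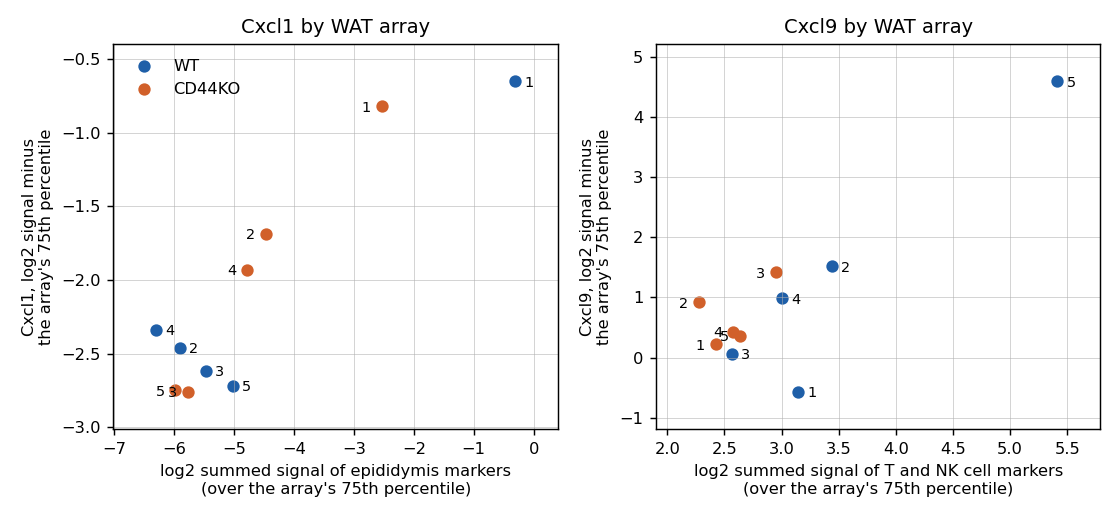
Left, the level of Cxcl1 on each WAT array (y axis, log2 signal minus the array's 75th percentile) against the log2 summed signal of 4 epididymis markers (x axis); right, Cxcl9 against that of 15 T and NK cell markers. Points are arrays, numbered by replicate within genotype. Replicate 1 of each genotype is at the upper right for Cxcl1, and WT replicate 5 alone is at the upper right for Cxcl9, at 4.59. Dim probes read high on WT replicate 1.

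Whether the genotype acted differently on a ligand in WAT and in liver was tested by the interaction term of a limma fit of all 20 arrays. Of 7 ligands that could be tested, none was called and none had an unadjusted p under 0.05, against 1.15% and 15.8% of 28988 probes. The interaction was 0.44 for Cxcl9 (95% confidence interval -1.53 to 2.41) and -0.32 for Cxcl14 (-1.38 to 0.74), on the log2 scale. For Cxcl11 it was -2.12 with an adjusted p of 0.326, a value that rests on dim signals, since 3 of 5 WT and all 5 CD44KO WAT arrays were not well above background. The interval of Cxcl9 includes differences between the tissues as large as its difference in liver, so a p that misses the threshold does not show that both tissues responded alike.

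The levels themselves differed between tissues for most ligands, though tissue, slide and scanner cannot be told apart in this design and 70.5% of the 28988 probes were called between WT WAT and WT liver, 34.3% higher in WAT. Cxcl14 was highest in WT WAT (2.22), followed by CD44KO WAT (1.03), WT liver (0.21) and CD44KO liver (-0.65). CD44KO WAT and WT liver overlapped, as did WT and CD44KO liver. WT WAT was 4.01-fold above WT liver (adjusted p = 6.31e-05, limma). Cxcl16 followed the same order of groups, with a log2 difference of 1.25 between WT WAT and WT liver (adjusted p = 0.000924), and again the ranges of CD44KO WAT, WT liver and CD44KO liver overlapped. Cxcl1 ran the other way, with means of -0.04 in WT liver, -0.23 in CD44KO liver, -1.99 in CD44KO WAT and -2.16 in WT WAT. After scaling it was 4.32-fold lower in WT WAT than in WT liver (adjusted p = 0.000307, limma). Before scaling, the processed signals of Cxcl1 overlapped, at 355.1 to 956.8 in WT liver and 325.8 to 1726 in WT WAT. Cxcl11 was also higher in liver, in CD44KO mice at least 32.8-fold, where no CD44KO WAT array measured it and 73.7% of probes were called between the tissues. Cxcl2 was well above background on every WAT array and on no liver array, and no fold between the tissues is given for it. For Cxcl9 and Cxcl10, WT WAT and WT liver differed by -0.29 and -0.09 on the log2 scale (adjusted p = 0.705 and 0.901), with intervals of -1.69 to 1.10 and -1.29 to 1.12.

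Of 8 CXC receptors on the array, 6 were tested in each tissue. Cxcr3, the receptor of Cxcl9, Cxcl10 and Cxcl11, was the only receptor called in liver and was lower in CD44KO mice. Of all probes tested in liver, 13.6% were called, 5.75% being lower. Cxcr3 was -1.61, -1.94, -1.62, -1.99 and -1.60 in WT and -2.14, -2.41, -2.32, -2.55 and -2.41 in CD44KO liver. The groups did not overlap, as for 11.7% of probes, with all CD44KO arrays below for 4.22%. The log2 difference was -0.61 (SE 0.11, adjusted p = 0.0133, limma). CD44KO replicate 3, whose Cxcl9 lay within the WT range and whose Cxcl10 lay above it, had a Cxcr3 level among the other CD44KO arrays. Cxcr6, the Cxcl16 receptor, differed by -0.46 (adjusted p = 0.128), the scavenging receptor Ackr3 by -0.99 (adjusted p = 0.0552), Cxcr4 by -0.39 (adjusted p = 0.593) and Ackr1 by -0.20 (adjusted p = 0.427). The Cxcl13 receptor Cxcr5 differed by 0.13 (adjusted p = 0.629). Cxcr1 and Cxcr2, which bind the ELR ligands on neutrophils, were not well above background on any liver array.

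In WAT no receptor was called, and 0 had an unadjusted p under 0.05 by limma. Cxcr3 was -0.53, -0.09, -0.66, -0.54 and 1.62 in WT and -1.11, -1.44, -0.41, -0.86 and -0.82 in CD44KO WAT, a difference of -0.89 (adjusted p = 0.356), with WT replicate 5 again the highest. The differences were -0.93 for Cxcr6, -1.06 for Cxcr5, -0.36 for Cxcr4, -0.26 for Ackr1 and 0.11 for Ackr3, with adjusted p between 0.388 and 0.817. Cxcr1 and Cxcr2 were well above background on WT replicate 1 alone (-1.95 and -0.01), the array on which dim probes read high, and were not tested. Both lay above the untested ligands Cxcl3, Cxcl15 and Cxcl17 on that array, which read -4.32, -3.11 and -4.16.

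Interferons, which induce Cxcl9, Cxcl10 and Cxcl11, also induce a wider set of target genes. In liver 23 of 24 interferon target genes were tested and 13 were called, all 13 lower, where 5.75% of all probes were called lower. The list had a median log2 difference of -0.84 against 0.08 over all probes. Isg15, a ubiquitin-like modifier, fell by 1.21 (adjusted p = 0.000548), Ifit3, which binds viral RNA complexes, fell by 1.23 (adjusted p = 0.00368), and Usp18, the protease that removes Isg15, fell by 1.76 (adjusted p = 0.00419), all on the log2 scale by limma. Of 18 interferon signal genes tested, 4 were called lower and none higher, and 6 had a higher mean in CD44KO liver (median -0.20). They included the transcription factors Irf7 (log2 difference -1.22) and Irf8 (-0.60), with adjusted p of 0.00678 and 0.0194. Without CD44KO replicate 3, 15 target genes and 5 signal genes were called lower and 1 signal gene higher, and without WT replicate 2 the count of signal genes was 2. The summed level of the target genes was 6.86 to 7.16 in WT and 6.51 to 6.81 in CD44KO liver, replicate 3 being the highest of the CD44KO arrays.

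In WAT 21 of 23 interferon target genes had a lower mean in CD44KO mice, against 55.3% of all probes, with a median of -0.66. An unadjusted p under 0.05 was reached by 8, against 14.9% of all probes, and none was called by limma. Without WT replicate 5, 16 of 23 had a lower mean, with a median of -0.26. The 2 with the largest differences were Mx1 (-1.07, adjusted p = 0.305) and Tap1 (-1.01, adjusted p = 0.307), and among the signal genes Ifng (-1.82, adjusted p = 0.34) and Il12b (-1.67, adjusted p = 0.284). The Ifng difference was -1.07 without WT replicate 5 and -0.63 without WT replicates 1 and 5. None of 19 signal genes was called by limma in WAT, and 5 had an unadjusted p under 0.05.

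NF-kB signalling switches on Cxcl1, Cxcl2 and Cxcl5. In liver 1 of 19 of its genes tested was called, where 5.75% of all probes were called lower. This gene was Nfkb2, lower by 0.64 on the log2 scale (adjusted p = 0.033, limma), and the list's median was -0.12. Nfkb2 was not called without WT replicate 1, 2, 3 or 5 or without CD44KO replicate 1, 2 or 4. In WAT none of 18 was called by limma, 1 had an unadjusted p under 0.05, and the largest differences were those of Il6 (0.86, adjusted p = 0.401, well above background on 2 WT and 5 CD44KO arrays) and Tnf (-0.62, adjusted p = 0.343). Among the proteases that shed or trim chemokines, Adam17, which can release Cxcl16 from the membrane, was lower in CD44KO liver by 0.28 (adjusted p = 0.0336), 1 of 2 tested. Adam17 was called only in the full set of arrays and without WT replicate 5 or CD44KO replicate 2 or 3. In WAT none of 5 was called by limma and 0 had an unadjusted p under 0.05, Mmp8 (-0.67, adjusted p = 0.668) and Mmp9 (-0.66, adjusted p = 0.662) having the largest differences.

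**Figure D5:**
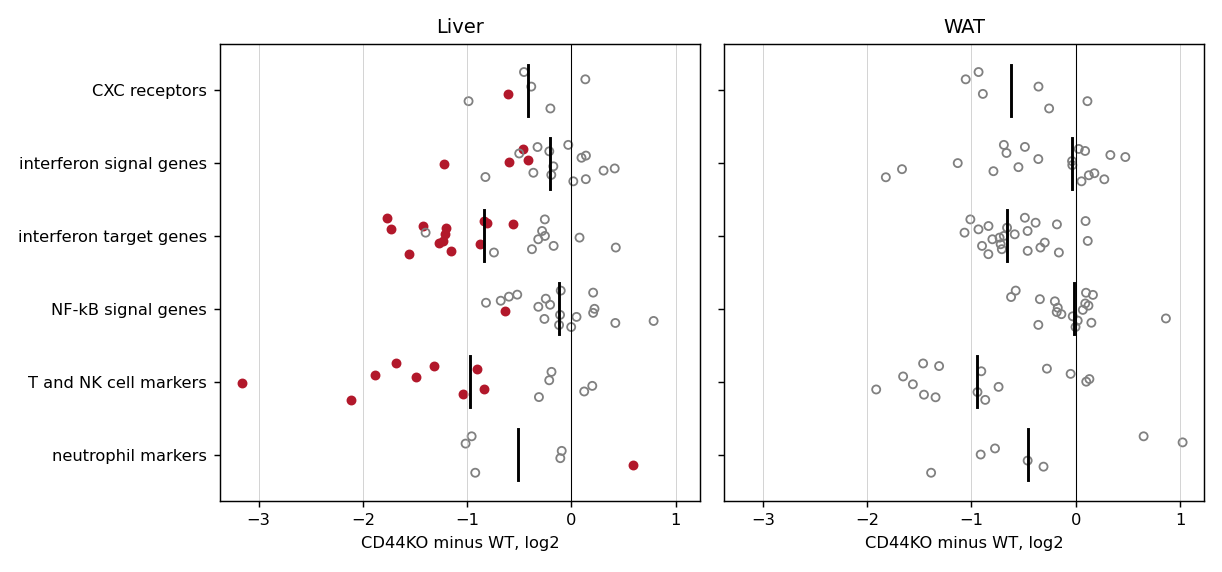
Log2 difference of CD44KO minus WT (x axis) for the tested genes of 6 lists in liver (left) and WAT (right); each point is a gene, filled red where its adjusted p was under 0.05, and the black line is the median of the list. In liver 13 of 23 interferon target genes and 9 of 14 T and NK cell markers were called lower, against 5.75% of all probes. In WAT no gene of these lists was called.

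Of 7 other CXC ligands, 4 were tested in each tissue. In liver 1 was called lower and 1 higher, against 5.75% and 7.85% of all probes. The platelet chemokine Pf4 fell by 1.37 on the log2 scale in CD44KO liver (adjusted p = 0.0168, limma), from 0.25 ± 0.52 to -1.12 ± 0.43 (SD, n = 5). Cxcl13, which draws B cells, rose by 3.95 (adjusted p = 0.0129), but was well above background on 1 WT and on 5 CD44KO liver arrays, so the size of this difference rests on dim WT signals. In WAT none was called by limma, 1 had an unadjusted p under 0.05, and the largest differences were those of Cxcl13 (-1.54, adjusted p = 0.442) and of the stromal chemokine Cxcl12 (0.89, adjusted p = 0.17). The Cxcl13 difference was -0.86 without CD44KO replicate 2 and -0.99 without WT replicate 5. Ppbp and Cxcl12 were not called in liver, and Cxcl3, Cxcl15 and Cxcl17 were not tested in either tissue.

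T and NK cells carry Cxcr3, and neutrophils carry Cxcr2. Of 14 T and NK cell markers tested, 9 were called lower in CD44KO liver and none higher, with a median of -0.97. Over all probes tested in liver, 5.75% were called lower and 7.85% higher, with a median of 0.08. The summed level of the T and NK cell markers was 2.69 to 4.02 in WT and 1.74 to 2.40 in CD44KO mice. CD44KO replicate 3 had the highest sum of the CD44KO arrays. The sum adds linear signals, so bright genes weigh most in it. Ccl5 was 1.08 on CD44KO liver replicate 3 against -0.14 to 0.49 on the other CD44KO liver arrays. Gzmb was -4.63 on replicate 3, and its highest CD44KO liver level was -3.96, on replicate 2. Cd8a signals in CD44KO liver were too dim to rank the arrays. Whether replicate 3 held more T and NK cells was not tested. Of 6 neutrophil markers tested, 1 was called higher and none lower, whereas 5 had a lower mean in CD44KO liver, with a median of -0.51. An unadjusted p under 0.05 by limma was reached by 4 of the 6, in either direction. The summed level of the neutrophil markers overlapped between 1.08 to 1.73 in WT and 0.37 to 1.33 in CD44KO liver. Of 12 macrophage markers, 4 were called lower, and 2 without WT replicate 1, 2 or 5 or CD44KO replicate 1, 2 or 4. Of 7 Kupffer cell markers 2 were called higher, and 0 without WT replicate 1, 2, 3 or 5 or CD44KO replicate 1, 4 or 5. The neutrophil call, Csf3r, was likewise kept only without WT replicate 4 or CD44KO replicate 2 or 3. Over all probes tested in WAT, 55.3% had a lower mean in CD44KO mice and 14.9% an unadjusted p under 0.05. There 13 of 15 T and NK cell markers had a lower mean, 5 had such a p and none was called by limma. The part of these cells in the level of Cxcl9 and the other ligands was not tested.

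The genes whose deviations from the group means were most like those of Cxcl9 over the 10 liver arrays were Tom1l2 (Pearson r = 0.96), LOC240921 (r = 0.96) and Adamts1 (r = 0.94), among 17006 genes. Without CD44KO replicate 3 the values were 0.97, 0.91 and 0.87. These values describe 10 arrays that share the 75th percentile scaling, and no test was made of them.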

How the data were processed

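RNA from liver and WAT of WT and CD44KO mice (5 per genotype and tissue) had been hybridised to single-dye Agilent arrays, 1 array per sample, on 3 slides per tissue. Each liver slide held as many WT as CD44KO arrays, whereas the genotypes were not balanced over the WAT slides. The deposited values are linear fluorescence intensities: the authors' scanner software, Feature Extraction 9.5.3.1, had subtracted a fitted background surface, corrected a multiplicative trend, replaced the dimmest signals by estimates and marked spots well above background (13 SD). The processed intensity in the deposited series table equalled that of the feature files for all spots of all 20 arrays, and no scaling between arrays had been made. Positions are those of the files (build mm7).

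From each log2 intensity the 75th percentile of its array over non-control spots was subtracted. Outlier spots were left out and spots of a probe averaged. Of 41174 probes, 22951 matched RefSeq genes by accession. The probe with the highest mean over the 20 arrays carried a gene's result. A probe was tested where some group had it well above background on 3 or more arrays, by limma 3.58.1 (R 4.3.3) within each tissue and by an interaction term over all 20 arrays, and p-values were adjusted by Benjamini-Hochberg over all such probes (threshold 0.05). For single ligands an exact permutation test, two-sided, was run as well. A fold against a group with no array well above background is a lower bound, with each dim signal replaced by the dimmest well-above signal of its array where that was higher. The test was tried on simulated arrays. The sequence patterns were first searched with ISRE and NF-kB letters 1 base longer, under which Cxcl9 held no match.

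Receptors were named in full. Of the other pathway lists, up to 3 genes per direction with the smallest adjusted p were named, or, where none was called, the 2 with the largest difference. One gene that this rule names is not reported here. The ligands and lists were chosen with earlier results of these data known. Nothing beyond the sample labels describes the replicates, so p-values measure the spread between these samples, and precision is set by how many arrays there were. Replicate numbers are shared between groups, but arrays of the same number did not deviate together (r between -0.21 and 0.42), so no pairing was used. Alternatives were normexp (offset 50), quantile and median scaling, other filters, blocks for slide and replicate number, array weights, a trended robust prior, a fit of all arrays, the brightest probe within a tissue and leaving out arrays. Leaving out WT WAT replicates 1 and 5 together was added after the data were seen.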

Additional observations from a re-analysis of the deposited data

Results flagged for a closer look

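Among 36 sets of 5 arrays (9 probes in 4 groups), 3 had 1 array far from the other 4 by Dixon's criterion, where chance gives about 1 in 20. Cxcl1 was -0.65 on WT WAT replicate 1 and between -2.72 and -2.34 on the other WT WAT arrays. Cxcl10 was 0.55 on CD44KO WAT replicate 1 and between -0.29 and -0.11 on the other CD44KO WAT arrays. Cxcl16 was 2.49 on WT WAT replicate 5 and between 1.58 and 1.73 on the other WT WAT arrays.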

How the results depend on the processing

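The single ligand called in liver, Cxcl9, stood at the threshold. The count of ligands called in liver was 1, and it was 0 with normexp background, quantile normalization, median centring, no filter on dim probes, the replicate block and the fit of all 20 arrays, with adjusted p for Cxcl9 of 0.0529, 0.0503, 0.0546, 0.103, 0.0844 and 0.536. Leaving out 1 array gave counts from 0 to 2, the 2 being Cxcl9 and Cxcl10 without CD44KO liver replicate 3, and the 1 without WT liver replicate 4 being Cxcl14. Cxcl9 was lower in CD44KO liver in all 21 alternatives (log2 difference -1.36 to -0.88). The cause of these shifts was not tested, except that the fit of all arrays adds the spread of WAT. In WAT the count of ligands called was 0 and became 1 with array weights (Cxcl14), and without WT replicates 1 and 5 it was 0. The interaction count was 0 under every alternative. With the replicate number as a block, 0 ligands were called in either tissue and 0 in the interaction. The numbers were not found to pair the arrays. Over all probes, calls ran from 638 to 4859 in liver, against 3358, and from 3 to 2851 in WAT, against 11. For ligands not called, the sign changed for Cxcl1 and Cxcl11 in liver and for Cxcl1, Cxcl2, Cxcl9 and Cxcl10 in WAT under at least 1 alternative. Signal over background limits Cxcl2 and Cxcl5 in liver and Cxcl5 and Cxcl11 in WAT.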
